A study of Mus musculus with 22 samples.

Results

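The transcripts described here are those of the translation initiation factors 2 to 5, taken as every gene in the deposited expression table whose symbol begins with Eif2, Eif3, Eif4 or Eif5. Of 55335 genes in the table, 57 had such a symbol. The 7 entries named as pseudogenes were left out, as was the gene of one eIF2 kinase, so that 49 genes remained. Of these, 48 are annotated as protein-coding. The other, Eif2c5, is a long noncoding RNA on the X chromosome that shares only the symbol. It was above 0 in 1 of the 22 libraries, too low for the main tests.

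The study asked how loss of the histone variant H2A.Z affects mouse preimplantation embryos. Zygotes came from B6D2F1 females of 8 weeks mated with B6D2F1 males. For knockdown (KD), a mix of siRNAs against the H2A.Z transcript was injected into the zygote cytoplasm at 20 μM and about 10 pl, 20 to 22 h after hCG, the hormone that triggers ovulation. Control and KD embryos were collected 43 to 44 h after hCG as 2-cell embryos, at 78 h as morulae and at 94 h as blastocysts. Whether the control embryos for RNA-seq received an injection is not given in the sources used here. Each library was made by Smart-seq2, which copies whole polyadenylated transcripts without marking strand, from a pool of 15 whole embryos. There were 4 control and 3 KD libraries at the 2-cell stage, 4 and 3 at the morula stage, and 4 and 4 at the blastocyst stage. Values are FPKM, fragment counts divided by gene length and library size, so that levels of different genes can be compared. The number of reads per library is unknown. Experiments other than chromatin profiling are described as repeated, but no source says which pools of a group came from separate collections. The p-values therefore measure the spread between these libraries, which may in part be technical. Within each group no 2 libraries held identical values.

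Initiation brings the small ribosomal subunit, the initiator tRNA and the mRNA together at a start codon. The eIF2 complex delivers the initiator tRNA as a GTP-bound ternary complex, eIF2B recharges eIF2 with GTP, and kinases that phosphorylate eIF2α slow this step under stress. eIF3 is the large scaffold on the small subunit, the eIF4 factors bind the cap and unwind the mRNA leader, and eIF5, eIF5B and eIF5A act at start codon recognition, subunit joining and peptide bond formation. Early embryos first translate stored maternal mRNA and then take over with transcripts of their own genome from the 2-cell stage on.

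The targeted transcript was lower in every KD library than in every control of its stage. H2afz, the main gene for H2A.Z, was at 1244, 1236, 905 and 1178 FPKM in the 2-cell controls and at 415, 139 and 112 FPKM in the 2-cell KD libraries. It was at 1158, 1336, 1511 and 1421 against 30.3, 25.7 and 29.0 FPKM in morulae, and at 2656, 2431, 1945 and 2055 against 64.2, 67.2, 53.2 and 57.6 FPKM in blastocysts. The log2 fold changes were −2.53 ± 0.38 (SE), adjusted p = 0.544 at the 2-cell stage, −5.41 ± 0.17 (SE), adjusted p = 9.72e-08 in morulae and −5.19 ± 0.20 (SE), adjusted p = 3.63e-08 in blastocysts. The 2-cell difference was thus large but did not pass the test over all genes. H2afv, which encodes the second form of H2A.Z, had −0.23 ± 0.16 (SE), adjusted p = 0.839 at the 2-cell stage, which did not pass, and was lower later, with −2.94 ± 0.15 (SE), adjusted p = 2.92e-06 in morulae and −1.86 ± 0.22 (SE), adjusted p = 7.98e-05 in blastocysts. Fold changes here and below are differences of log2(scaled FPKM + 1), which understate changes of low genes. Values of single libraries are FPKM before this scaling. Whether groups overlap was judged on those values and can differ on the scaled ones.

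The members covered a wide range of levels. In the 2-cell controls 47 of the 49 had a mean of at least 1 FPKM and 9 of at least 100 FPKM. In the morula controls these numbers were 41 and 19, and in the blastocyst controls 42 and 17. The median of the members' mean levels was 30.6 FPKM in 2-cell, 59.8 FPKM in morula and 42.96 FPKM in blastocyst controls. Over the members with a mean of at least 1 FPKM, the median coefficient of variation was 12.7%, 15.6% and 17.5% in the same groups. The summed FPKM of the 49 members was 2708, 2872, 3061 and 3229.7 in the 2-cell controls and 2689, 2993 and 2631 in the 2-cell KD libraries. It was 8870.01, 9050.5, 8125 and 8299 in morula controls and 8001, 8310.2 and 8361 in morula KD libraries. In blastocysts it was 6217, 6228, 6423 and 6272 in controls and 7749, 7193, 7446 and 7935 after KD. The control and KD sums overlapped at the 2-cell and morula stages, while in blastocysts every KD sum lay above every control sum.

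Eif5a encodes a factor that helps ribosomes through difficult peptide bonds and carries the modified residue hypusine. By mean level it was the most abundant member in 2-cell and morula controls. It was second in blastocyst controls, after Eif2s2, the gene of the β subunit of eIF2. Eif5, which encodes the protein that triggers GTP hydrolysis by eIF2, ranked second in the 2-cell controls at 329, 329.5, 293 and 371 FPKM. Eif2s2 was at 969, 1144, 1548 and 1572 FPKM in morula controls. It ranked second there by mean level, but was above Eif5a in control replicates 7 and 8. In blastocyst controls Eif2s2 was at 1882, 1307, 1384 and 1315 FPKM. Among the blastocyst controls the first of these stood well above the other 3. Eif2s2 passed no knockdown test, with log2 fold changes of 0.21, −0.11 and −0.26 at the 3 stages. It held 933, 1000.2 and 1378 FPKM in the morula KD and 1466, 1341, 981 and 1106 FPKM in the blastocyst KD libraries.

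At the 2-cell stage no member passed the test after KD. Of 48 members tested, 0 were higher and 0 were lower at an adjusted p of 0.05 by limma, and 0 had an unadjusted p under 0.05. Over all 12160 genes tested, 0% were called higher and 0% lower, and 701 had an unadjusted p under 0.05. The members' median log2 fold change was 0.01, against 0.00 over all genes. Every KD library lay above every control library for 0 members and below for 2, Eif4e and Eif2d, where 2.65% and 4.13% of all genes did so. Eif4e, the cap-binding protein gene, was at 244, 236, 239 and 249.6 FPKM in controls and 203, 232 and 204 FPKM after KD. Its log2 fold change was −0.12 ± 0.13 (SE), adjusted p = 0.891.

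In morulae 2 of 42 members tested were higher after KD and 0 were lower, beside 4.22% and 9.05% of all 10989 genes. None passed both the adjusted p of 0.05 and an absolute log2 fold change above 1, the thresholds for a differentially expressed gene (DEG), which 3.59% of all genes met. The members' median log2 fold change was 0.08 against 0.02 over all genes. Every KD library was above every control for 2 members and below for 9, where 6.7% and 22.9% of all genes did so. This balance depended on scaling. With FPKM as deposited 1 member was higher and 4 lower, beside 2.56% and 14.1% of all genes. With scaling to the summed FPKM 1 was higher and 7 lower, beside 2.19% and 16.2%. The members' median was then −0.04 and −0.09, in the direction opposite to the main one, and the median of all genes moved by −0.10 and −0.15. Among all called genes the share called higher was 31.8% with the main scaling, 15.3% as deposited and 11.9% with the summed FPKM.

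In blastocysts 14 of 42 members tested were higher after KD and 2 were lower, beside 16.7% and 19.8% of all 11828 genes. The 2 DEGs were Eif5, which was higher, and Eif2s3y, which was lower, where 13.9% of all genes were DEGs. The members' median log2 fold change was 0.40 against 0.00 over all genes, and 32 of the 42 had a positive value. It was 0.39 with FPKM as deposited and 0.51 with scaling to the summed FPKM. Every KD library was above every control for 15 members and below for 4, where 14.6% and 20% of all genes did so. The 7 members not tested, Eif2ak4, Eif2c5, Eif4e1b, Eif4e3, Eif4ebp2, Eif4g3 and Eif5a2, reached 1 FPKM in fewer than 3 of the 8 libraries. In morulae Eif4ebp2 was tested and Eif2ak3 was not, and the other 6 were again too low. In pools of whole embryos, a change in the number of cells that hold a transcript and a change in its amount per cell cannot be told apart. The morula and blastocyst comparisons share no libraries, and neither shares any with the 2-cell comparison.

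**Figure D1:**
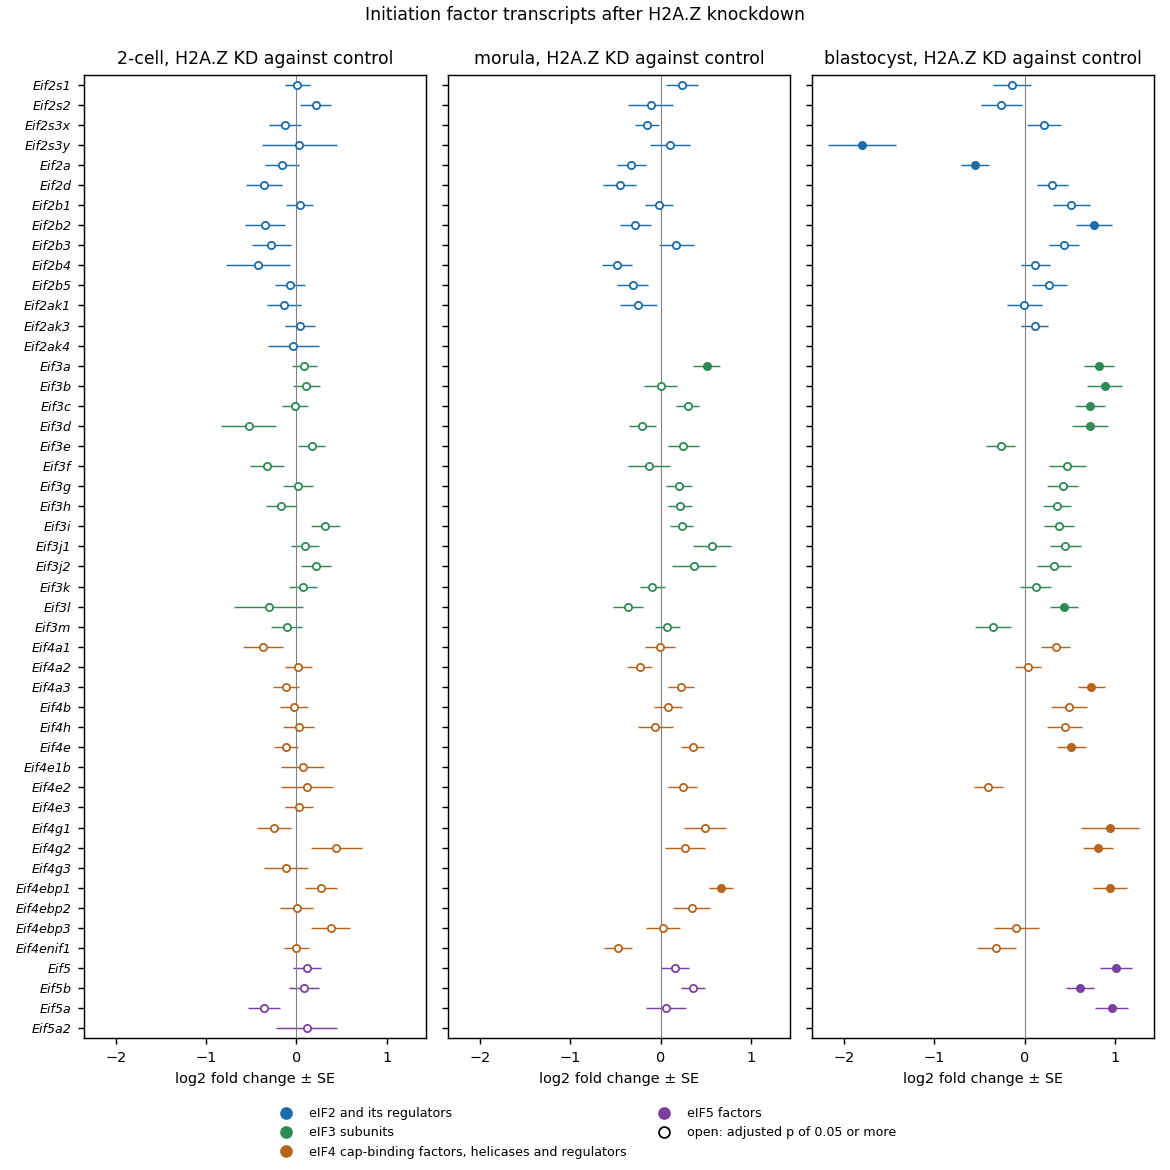
Log2 fold change of KD against control (horizontal axis, bars show ± SE) for each member tested, with 1 panel per stage, filled points for an adjusted p under 0.05 and colours for the roles. The 2-cell panel has 0 filled points, the morula panel 2 and the blastocyst panel 16, of which 14 lie to the right of 0.

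Of 13 tested genes of eIF2 and its regulators, 1 rose and 2 fell in blastocysts after KD, where 16.7% and 19.8% of all genes did. None of 12 tested in morulae passed, where 4.22% of all genes rose and 9.05% fell, and none of 14 at the 2-cell stage, where 0% of all genes did. With FPKM as deposited, Eif2d and Eif2b4 were lower in morulae, where 14.1% of all genes fell. With the summed FPKM, Eif2a and Eif2b5 were lower too, where 16.2% of all genes fell. The group's median log2 fold change was 0.12 in blastocysts and −0.20 in morulae. Eif2s3y, on the Y chromosome (chrY:1010543-1028847, GRCm38), encodes a copy of the γ subunit of eIF2, which holds GTP and the initiator tRNA. In blastocysts it was at 31.5, 51.4, 14.3 and 60.1 FPKM in the controls and at 8.64, 9.83, 6.53 and 12.2 FPKM in the KD libraries. All KD libraries lay below all controls, and the controls themselves ranged widely. This made a log2 fold change of −1.81 ± 0.38 (SE), adjusted p = 0.00305. In 2-cell embryos the gene was at 8.35, 5.705, 4.403 and 17.5 FPKM in controls and 10.6, 10.5 and 4.05 FPKM after KD, and in morulae at 32.5, 22.2, 17.01 and 26.5 and 20.9, 20.5 and 30.9 FPKM. The groups overlapped at both stages.

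The X-linked copy, Eif2s3x, shares no stretch of 50 bases with Eif2s3y in the annotated transcripts, so reads can be assigned to one or the other, although 34.6% of the stretches in Eif2s3x also occur in other genes. In blastocysts Eif2s3x was at 39.5, 34.4, 54.8 and 37.5 FPKM in controls and 44.1, 40.5, 67.9 and 41.1 FPKM after KD, with overlapping groups and a log2 fold change of 0.21 ± 0.19 (SE), adjusted p = 0.404. The share of the Y-linked copy in the summed FPKM of the pair was 46.6% ± 18.96 (SD, n = 4) in blastocyst controls and 16.9% ± 6.05 (SD, n = 4) in the KD libraries. It was 31.97% ± 5.73 (SD, n = 4) and 36.1% ± 7.75 (SD, n = 3) in morulae. The numbers of male and female embryos in the pools are not given in the sources used here. Other Y-linked genes, chosen after their values were seen, moved in part with Eif2s3y. Usp9y and Zfy1 were also looked up and are not described here. Kdm5d was at 0.353, 0.262, 0.194 and 0.501 FPKM in blastocyst controls and 0.0251, 0.0256, 0.0135 and 0.0223 FPKM after KD, and Uty at 0.791, 2.92, 0.511 and 2.48 and 0.0407, 0.405, 0.0769 and 0.221 FPKM. Neither gene's groups overlapped, at levels far below Eif2s3y. Ddx3y, at 7.96, 13.9, 5.71 and 12.4 and 4.296, 6.46, 4.05 and 13.8 FPKM, had overlapping groups, as had the X-linked Xist at 5.45, 2.51, 9.54 and 4.66 and 6.36, 11.4, 14.3 and 6.702 FPKM. The part that the makeup of the pools had in the Eif2s3y result was not tested.

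Eif2a encodes a separate protein that can bring initiator tRNA to the ribosome without the eIF2 complex. It was at 42.1, 51.7, 53.7 and 50.7 FPKM in blastocyst controls and 36.2, 33.99, 30.02 and 32.4 FPKM in KD libraries. The 4 KD libraries were the lower ones, with no overlap. The log2 fold change was −0.56 ± 0.16 (SE), adjusted p = 0.0147. Its exons overlap those of Serp1 on the opposite strand, and without strand information reads of the 2 genes cannot be told apart there. Of the members that rose in blastocysts, Eif3d and Eif5b have the same limit, with Gm17638 and Rev1 on the opposite strand. In morulae Eif2a was at 44.3, 42.7, 45.3 and 32.2 against 28.2, 27.8 and 33.2 FPKM, with overlapping groups and a log2 fold change of −0.32 ± 0.16 (SE), adjusted p = 0.196. It passed as lower there with scaling to the summed FPKM, where 16.2% of all genes fell.

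Of the 5 eIF2B subunit genes, Eif2b2, for the β subunit of the exchange factor, passed in blastocysts, where 16.7% of all genes were higher. It was at 13.6, 27.1, 27.5 and 23.5 FPKM in controls and at 42.3, 31.1, 39.2 and 40.97 FPKM after KD. Every KD library was above every control. Its log2 fold change was 0.77 ± 0.20 (SE), adjusted p = 0.00922. The values for Eif2b1, Eif2b3, Eif2b4 and Eif2b5 were 0.52, 0.44, 0.12 and 0.27, with adjusted p between 0.0561 and 0.609. Eif2b1 and Eif2b3 also passed as higher with FPKM as deposited, with the summed FPKM and without blastocyst KD replicate 5. They did so too with a term for low against high replicate numbers, and Eif2b1 with replicate number as a block. The kinases of eIF2α that were members did not pass: Eif2ak1, the heme-regulated kinase gene, had −0.00 and Eif2ak3, the gene of the endoplasmic reticulum kinase PERK, had 0.11 in blastocysts. Eif2ak4, for the amino acid sensor GCN2, was too low to be tested in morulae and blastocysts. Eif2s1, for the α subunit that the kinases modify, had −0.14, and Eif2d, for a factor that can deliver tRNA in place of eIF2, had 0.31.

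Among the 14 eIF3 subunit genes, all tested at each stage, 5 rose in blastocysts after KD, 1 in morulae and 0 at the 2-cell stage, and none fell. Of all genes, 16.7% rose and 19.8% fell in blastocysts, 4.22% and 9.05% in morulae, and 0% at the 2-cell stage. The group's median log2 fold changes were 0.43, 0.21 and 0.05 in that order. The morula count turned with scaling. With FPKM as deposited or with the summed FPKM, Eif3a no longer passed and Eif3l was lower, where 14.1% and 16.2% of all genes fell. Eif3a, for the largest subunit, passed in both later stages, but in morulae only narrowly. In morulae it was at 82.6, 80.5, 61.7 and 58.6 FPKM in controls and 92.02, 101 and 83.3 FPKM after KD. The 3 KD libraries were higher than all controls, but in FPKM as deposited the lowest KD value exceeded the highest control only slightly. On the scaled values that were tested the gap was wider. The log2 fold change was 0.51 ± 0.15 (SE), adjusted p = 0.0462. The gene no longer passed without control replicate 7 or 8, or without any one of the 3 KD replicates, with adjusted p of 0.109, 0.112, 0.11, 0.187 and 0.0716. Nor did it pass with no filter (adjusted p = 0.105), with FPKM as deposited (0.39, adjusted p = 0.118) or with scaling to the summed FPKM (0.33, adjusted p = 0.18). With replicate number as a block it had 0.40, adjusted p = 0.217. In blastocysts Eif3a was at 33.2, 48.3, 42.3 and 48.1 against 57.01, 69.2, 90.2 and 91.5 FPKM, again without overlap. Its blastocyst log2 fold change was 0.82 ± 0.17 (SE), adjusted p = 0.00263.

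Eif3b, which together with Eif3a forms the core scaffold of the complex, was at 13.2, 21.02, 23.3 and 18.8 FPKM in blastocyst controls and 29.8, 25.3, 50.98 and 39.7 FPKM after KD, with a log2 fold change of 0.88 ± 0.20 (SE), adjusted p = 0.00432. Eif3c, another core subunit gene, rose by 0.72 ± 0.17 (SE), adjusted p = 0.00532, with all KD libraries above all controls. Eif3d, whose product can itself bind the cap of some mRNAs, was at 45.1, 88.1, 108 and 77.03 against 106, 114, 153 and 134 FPKM. Before scaling, 1 KD library was just below the highest control, while on the scaled values the groups did not overlap. The log2 fold change was 0.73 ± 0.20 (SE), adjusted p = 0.0144, or adjusted p = 0.0629 with no filter. Eif3l was at 96.1, 145, 171 and 142 against 171, 166, 207 and 189 FPKM, with 0.43 ± 0.16 (SE), adjusted p = 0.0469. Its groups overlapped in FPKM as deposited, though not on the scaled values. Its call was lost in 7 of the 8 fits that left out a blastocyst library, the exception being control replicate 5, with adjusted p from 0.0625 to 0.113. It was also lost for Eif3l with no filter (adjusted p = 0.0685), with FPKM as deposited (adjusted p = 0.0788) and with the summed FPKM (adjusted p = 0.0546). The other 9 eIF3 genes ranged from −0.35 for Eif3m to 0.47 for Eif3f. Of these, Eif3g and Eif3i passed as higher with FPKM as deposited, with the summed FPKM and without blastocyst KD replicate 5. Eif3h passed in the last 2 of these fits, Eif3j1 with the summed FPKM, and Eif3f and Eif3j1 without KD replicate 4. Of all genes, 15.1%, 17.6%, 15.3% and 16.1% rose in these 4 fits, in the order named. In morulae Eif3d and Eif3l had log2 fold changes of −0.20 and −0.36, with adjusted p of 0.382 and 0.18. Eif3l passed as lower there with FPKM as deposited and with the summed FPKM.

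Although the subunits work in a complex, their transcripts were far from equal per length. In 2-cell libraries the highest was Eif3h and the lowest Eif3d in each of the 7 libraries, with a ratio between 14.4 and 54.1, although 20.3% of the stretches of 50 bases in Eif3h also occur in other genes. In the morula and blastocyst libraries the highest was Eif3g or Eif3k. The summed FPKM of the 14 genes was 2105 ± 54.98 (SD, n = 4) in blastocyst controls and 2371 ± 84.6 (SD, n = 4) after KD. It was 2544 ± 113 (SD, n = 4) and 2499 ± 71.2 (SD, n = 3) in morulae. Eif3j1 and Eif3j2 are near copies: 91.8% of the stretches of 50 bases in Eif3j2 transcripts also occur in other genes, chiefly Eif3j1. The even split between them, with 49.6% ± 2.59 (SD, n = 4) assigned to Eif3j2 in morula controls, therefore cannot be read as the level of either gene.

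Of the 16 genes of the eIF4 group, 12 were tested in blastocysts and 5 rose after KD. None fell, where 16.7% of all genes rose and 19.8% fell, and the group's median log2 fold change was 0.46. Eif4ebp1 (chr8:27260329-27276674, GRCm38) encodes 4E-BP1, the repressor that holds eIF4E away from eIF4G until mTORC1 phosphorylates it. It was the member with the largest passing rise in morulae. There it was at 208, 222, 183 and 177 FPKM in controls and 299, 269 and 294 FPKM after KD. All KD libraries were above all controls. The log2 fold change was 0.67 ± 0.13 (SE), adjusted p = 0.0113. With replicate number as a block it was 0.57, adjusted p = 0.0562, and did not pass. In blastocysts Eif4ebp1 was at 109, 166, 147 and 145 against 335, 252, 226 and 279 FPKM, again without overlap, with 0.95 ± 0.19 (SE), adjusted p = 0.00211. At the 2-cell stage it was at 7.64, 7.05, 7.88 and 7.45 and 8.97, 11.1 and 6.88 FPKM with overlapping groups, and its log2 fold change of 0.27 ± 0.18 (SE) did not pass.

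Eif4e itself was at 81.1, 90.9, 87.2 and 91.9 FPKM in blastocyst controls and 145, 127, 111 and 121 FPKM in KD libraries, with a log2 fold change of 0.52 ± 0.16 (SE), adjusted p = 0.0264. The groups did not overlap, yet the call was lost without control replicate 4, 5 or 6 or KD replicate 1, 4 or 6, with adjusted p from 0.0527 to 0.0718, and with no filter (adjusted p = 0.053). The ratio of Eif4ebp1 to Eif4e FPKM was 0.031 ± 0.00151 (SD, n = 4) in 2-cell controls, 0.878 ± 0.0949 (SD, n = 4) in morula controls and 1.61 ± 0.205 (SD, n = 4) in blastocyst controls. After KD it was 0.0419 ± 0.00724 (SD, n = 3), 1.095 ± 0.169 (SD, n = 3) and 2.16 ± 0.175 (SD, n = 4). The ratio thus rose with stage in both series and was not tested between control and KD. Eif4ebp2 made up only 0.375% ± 0.196 (SD, n = 4) of the summed FPKM of the Eif4ebp1 and Eif4ebp2 pair in morula controls, against 17.3% ± 1.501 (SD, n = 4) at the 2-cell stage.

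The scaffold gene Eif4g1 rose by 0.95 ± 0.32 (SE), adjusted p = 0.0348 in blastocysts, and Eif4g2, which encodes a scaffold that lacks the eIF4E binding site, by 0.81 ± 0.17 (SE), adjusted p = 0.00279. Eif4g2 was at 47.7, 45.01, 41.4 and 47.3 against 76.8, 88.99, 92.1 and 64.9 FPKM, with no overlap. The Eif4g1 groups overlapped, and the call was lost without control replicate 1 or 4 or KD replicate 5 or 6, with adjusted p from 0.0546 to 0.0974. Without KD replicate 5 the Eif4g1 fold change was 0.63. Its call was also lost with no filter (adjusted p = 0.157), with FPKM as deposited (adjusted p = 0.0641) and with the summed FPKM (adjusted p = 0.0611). Eif4a3, the helicase gene of the exon junction complex, was at 101, 136, 162 and 139.7 against 209, 196, 244 and 237 FPKM, with 0.74 ± 0.15 (SE), adjusted p = 0.0024. Its KD libraries were all above its controls. The canonical helicase genes Eif4a1 and Eif4a2 had 0.34 and 0.04 and did not pass. Eif4a2 made up 51.2% ± 5.92 (SD, n = 4) of the pair's FPKM in blastocyst controls and 45.96% ± 3.09 (SD, n = 4) after KD. Of the Eif4a1 stretches of 50 bases, 28.4% also occur in other genes, so its level is uncertain. Eif4b and Eif4h, for the helicase cofactors, had 0.49 and 0.44, with adjusted p of 0.0779 and 0.0933. Both passed as higher without blastocyst KD replicate 4, where 16.1% of all genes rose. Eif4enif1 had −0.31 and Eif4ebp3 −0.09, the latter uncertain because 65.5% of its stretches of 50 bases also lie in a gene that overlaps it. Eif4e2, for a cap-binding protein that represses translation, had −0.40, with adjusted p = 0.0719. In FPKM as deposited its KD libraries were all below its controls, and with that scaling it passed as lower, where 20.1% of all genes fell.

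All 3 tested genes of the eIF5 group rose in blastocysts after KD, where 16.7% of all genes did. Eif5 (chr12:111538016-111546752, GRCm38) was at 136, 206, 232 and 175 FPKM in controls and at 396, 323, 334 and 435 FPKM in KD libraries. All KD libraries were above all controls. Its log2 fold change was 1.01 ± 0.18 (SE), adjusted p = 0.00111. In morulae the gene was at 451, 584, 455 and 518 against 523, 483 and 530.1 FPKM, and in 2-cell KD embryos at 348, 334 and 343 FPKM, with overlapping groups at both stages. Eif5a was at 531, 700.3, 786 and 833 FPKM in blastocyst controls and 1254, 1021, 1601 and 1684 FPKM after KD, also without overlap. Its log2 fold change was 0.96 ± 0.18 (SE), adjusted p = 0.00152. In morulae Eif5a was at 2117, 2010.2, 1118 and 1147 against 1360.5, 1783 and 1286 FPKM, where control replicates 1 and 2 were far above 7 and 8. At the 2-cell stage it was at 352, 419, 496 and 511 against 268, 362 and 361 FPKM.

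Eif5b, which encodes the GTPase that joins the ribosomal subunits, was at 9.16, 10.5, 8.604 and 10.03 against 14.4, 13.8, 16.2 and 15.8 FPKM in blastocysts, with 0.61 ± 0.15 (SE), adjusted p = 0.00824. The KD libraries were all higher. The summed FPKM of the eIF5 group was 909 ± 163 (SD, n = 4) in blastocyst controls and 1778 ± 339.7 (SD, n = 4) after KD. The second eIF5A gene, Eif5a2, made up 0.737% ± 0.377 (SD, n = 4) of the pair's FPKM in 2-cell controls and 0.0455% ± 0.0156 (SD, n = 4) in morula controls, so nearly all eIF5A transcript came from Eif5a.

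The count of member DEGs in blastocysts rested on values close to the threshold. It was 1 without control replicate 1 or without KD replicate 6, and 5 without KD replicate 4. The number of members that rose stayed between 11 and 17 in the 8 fits that left out a library, beside 12.9% to 16.1% of all genes. The share of all genes that were DEGs, 13.9% in the main fit, is not given for the other fits.

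**Figure D2:**
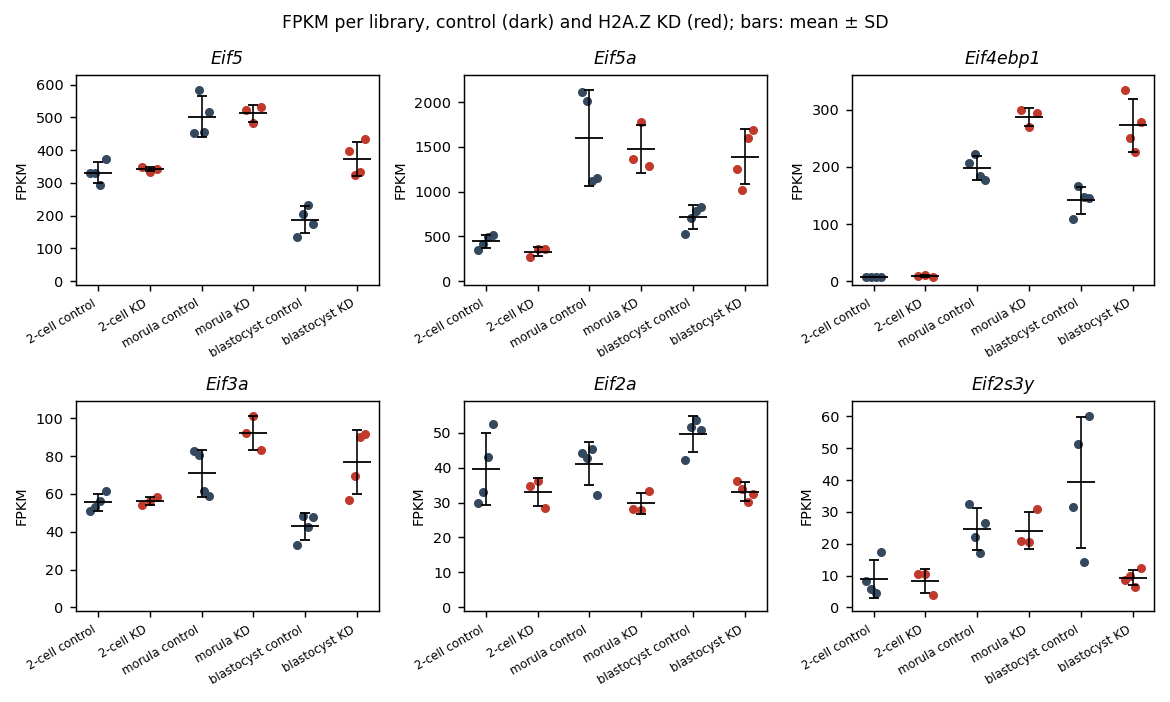
FPKM (vertical axis, starting at 0) of 6 members in each library, by group (horizontal axis), with control libraries dark and KD libraries red, and the mean ± SD as black bars. In blastocysts the 4 KD libraries lie above the 4 controls for Eif5, Eif5a, Eif4ebp1 and Eif3a, and below them for Eif2a and Eif2s3y.

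Whether the response to KD differed between blastocysts and morulae was tested as an interaction. Of 43 members tested, 5 passed, where 11.7% of all 12727 genes did. Eif2b2 had an interaction of 1.01 ± 0.27 (SE), adjusted p = 0.0217, Eif3d of 0.89 ± 0.26 (SE), adjusted p = 0.0366, and Eif3l of 0.75 ± 0.22 (SE), adjusted p = 0.0377. Eif5 had 0.81 ± 0.24 (SE), adjusted p = 0.0368. These 4 members changed more toward higher values in blastocysts than in morulae. Eif2s3y went the other way, with −1.95 ± 0.50 (SE), adjusted p = 0.0188. Eif2b2 was at 77.7, 66.4, 43.7 and 51.6 against 48.3, 44.4 and 39.3 FPKM in morulae, Eif3d at 138, 103, 103 and 133 against 94.6, 92.4 and 95.4 FPKM, and Eif3l at 195, 178, 196 and 225 against 129, 132 and 165 FPKM. In FPKM as deposited, the KD libraries of Eif3d and Eif3l were below all controls there, whereas Eif2b2 overlapped. On the scaled values that were tested, Eif3d and Eif3l overlapped too. For Eif3a and Eif4ebp1, which had passed in morulae, the interaction was 0.27 and 0.24 and did not pass. With scaling to the summed FPKM 13 members passed, where 13.9% of all genes did, 12 of them toward higher values in blastocysts, and the median of all genes moved by 0.25. Of the genes called, 71.3% then lay toward higher values, against 46.3% with the main scaling, and with FPKM as deposited the median moved by 0.12. The number that passed was 2 or 3 without morula control replicate 8, any one morula KD replicate, blastocyst control replicate 1 or 6, or blastocyst KD replicate 1 or 6. In these fits 7.59% to 10.2% of all genes passed. Without blastocyst KD replicate 4 it was 8, where 13.3% of all genes passed.

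Single interactions depended on single libraries in unequal measure. With no filter on low values all 5 lost their call, with adjusted p of 0.066 for Eif2b2, 0.0976 for Eif2s3y, 0.101 for Eif3d, 0.0923 for Eif5 and 0.0796 for Eif3l. With replicate number as a block Eif2b2, Eif3d, Eif3l and Eif5 lost it, with adjusted p of 0.0519, 0.071, 0.0861 and 0.13. Among the fits that left out 1 library, Eif2b2 and Eif2s3y lost their call only without morula KD replicate 6, with adjusted p = 0.0514 for Eif2b2 and adjusted p = 0.0548 for Eif2s3y. Eif3d lost it without morula control replicate 1 or 8, morula KD replicate 1, 2 or 6, blastocyst control replicate 1 or 6, or blastocyst KD replicate 5 or 6, with adjusted p from 0.0507 to 0.0827. Eif5 lost it without morula control replicate 2 or 8, morula KD replicate 1, 2 or 6, blastocyst control replicate 1 or 6, or blastocyst KD replicate 1 or 6, with adjusted p from 0.0502 to 0.0876. Eif3l lost it without morula control replicate 7 or 8, morula KD replicate 1 or 2, blastocyst control replicate 1, 4 or 6, or blastocyst KD replicate 1, 5 or 6, with adjusted p from 0.0506 to 0.105.

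The control embryos show how the members move in development. From the 2-cell stage to the morula 29 of 47 members tested rose and 10 fell, beside 43% and 40.3% of all 13655 genes. Their median log2 fold change was 0.91, against 0.10 over all genes, and 0.53 with scaling to the summed FPKM, which moved the median of all genes by −0.30. From the morula to the blastocyst 0 of 42 members rose and 24 fell by limma, beside 27.6% and 28.8% of all 11849 genes. The median was −0.52 against −0.03, and all of the 24 members with an unadjusted p under 0.05 passed. It was −0.44 with FPKM as deposited and −0.63 with the summed FPKM. The morula controls enter both of these comparisons, and the control libraries also enter the KD comparisons of their stage, so the values are given side by side only.

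Eif4ebp1 rose most from the 2-cell stage to the morula, from the 7.64, 7.05, 7.88 and 7.45 FPKM given above to 208, 222, 183 and 177 FPKM. No library of either stage came near the other. The log2 fold change was 4.53 ± 0.14 (SE), adjusted p = 1.36e-10. Eif3d went from 3.98, 6.19, 10.1 and 11.2 to 138, 103, 103 and 133 FPKM, with 3.84 ± 0.24 (SE), adjusted p = 2.61e-08. Eif2b3, for the γ subunit of eIF2B, went from 12.8, 10.99, 16.6 and 22.2 to 174, 211, 231 and 253 FPKM, with 3.74 ± 0.22 (SE), adjusted p = 1.88e-08. All morula values of these genes were many times the 2-cell values. By role, 9 of 14 genes of the eIF2 group rose and 3 fell, 11 and 2 of 14 eIF3 genes, 7 and 4 of 15 tested eIF4 genes, and 2 and 1 of 4 eIF5 genes, where 43% of all genes rose and 40.3% fell. With scaling to the summed FPKM, Eif3c, Eif3f, Eif3h, Eif4b and Eif5 no longer passed, with adjusted p of 0.113, 0.325, 0.509, 0.0763 and 0.161. The most abundant members also rose, Eif5a by 1.79 and Eif2s2 by 3.01.

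On the scale of log2(scaled FPKM + 1) the 3 largest falls were those of Eif4e3, Eif4enif1 and Eif4e1b. Eif4e3, for a cap-binding homologue of eIF4E, was at 53.6, 47.4, 47.7 and 41.2 FPKM in 2-cell and at 0.277, 0.29, 0.0767 and 0.439 FPKM in morula controls. Its log2 fold change was −5.26 ± 0.17 (SE), adjusted p = 1.73e-10. Eif4enif1, for the eIF4E transporter 4E-T that is found in sites of stored and repressed mRNA, went from 29.4, 30.98, 30.3 and 31.7 to 5.72, 3.89, 4.57 and 4.02 FPKM, with −2.53 ± 0.15 (SE), adjusted p = 1.50e-08. Eif4e1b, the homologue of eIF4E made in oocytes, went from 5.58, 4.37, 6.38 and 2.80 to 0.0832, 0.0958, 0.0331 and 0.0773 FPKM, with −2.39 ± 0.19 (SE), adjusted p = 2.52e-07, and −4.78 with a pseudocount of 0.1. All 3 were far lower in every morula library. KD libraries of the 2-cell stage were at 44.1, 46.6 and 47.3 FPKM for Eif4e3 and 30.6, 29.4 and 27.6 FPKM for Eif4enif1, within or close to the range of their controls. Eif4e1b held only 1.94% ± 0.641 (SD, n = 4) of the summed FPKM of Eif4e and Eif4e1b in 2-cell controls, and 0.032% ± 0.0121 (SD, n = 4) in morula controls. Other members that fell were the kinase genes Eif2ak1, Eif2ak3 and Eif2ak4, with −0.54, −2.33 and −1.60, and Eif3j1, Eif3j2, Eif4ebp2 and Eif5a2. Because of their shared sequence, Eif3j1 and Eif3j2 cannot be read as 2 separate falls. Eif2ak1 no longer passed without morula control replicate 2 or 8, with adjusted p from 0.0562 to 0.0585, and had −0.85 with the summed FPKM. With a pseudocount of 0.1 Eif2ak4 had −3.36, a larger fall than that of Eif4enif1 (−2.74). Of the 10 that fell, 6 had a mean under 1 FPKM in morula controls and were tested only because of their 2-cell level. These were Eif4e3, Eif4e1b, Eif2ak3, Eif2ak4, Eif4ebp2 and Eif5a2, and with no filter their adjusted p was 1.41e-07, 3.55e-05, 3.52e-06, 7.63e-05, 0.0137 and 0.00693.

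**Figure D3:**
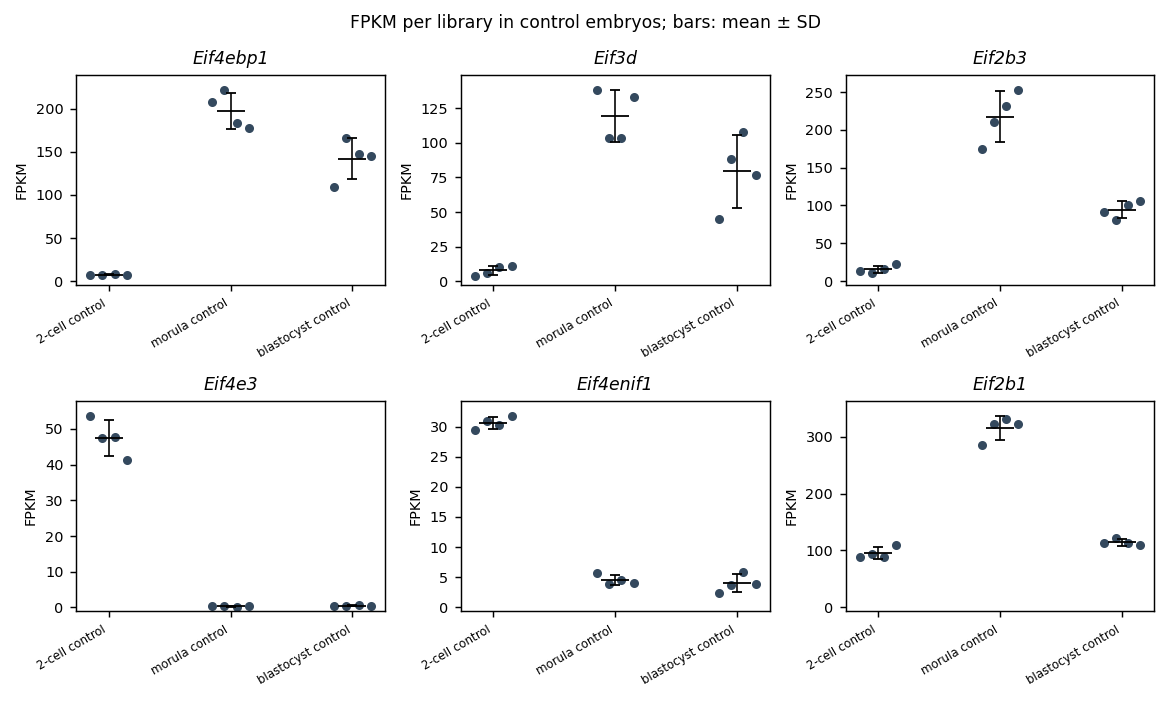
FPKM (vertical axis, starting at 0) of 6 members in the control libraries of the 3 stages (horizontal axis), with the mean ± SD as black bars. Eif4ebp1, Eif3d and Eif2b3 are lowest in the 2-cell libraries, Eif4e3 and Eif4enif1 are highest there, and Eif2b1 is highest in the morula libraries.

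From the morula to the blastocyst the largest falls were those of Eif2b1, Eif5 and Eif2b2. Eif2b1, for the α subunit of eIF2B, was at 285, 322, 331 and 323 FPKM in morula and 112, 122, 113 and 109 FPKM in blastocyst controls, with −1.55 ± 0.15 (SE), adjusted p = 4.83e-06. Eif5 fell from the morula values above with −1.53 ± 0.17 (SE), adjusted p = 1.72e-05, and Eif2b2 with −1.45 ± 0.20 (SE), adjusted p = 9.63e-05. For each of the 3 genes all blastocyst controls lay below all morula controls. Among the roles, 4 of 13 tested genes of the eIF2 group, 10 of 14 eIF3 genes, 7 of 12 eIF4 genes and all 3 tested eIF5 genes fell, where 28.8% of all genes did. With FPKM as deposited, Eif2s3x, Eif3j1 and Eif4b no longer passed, with adjusted p of 0.0972, 0.102 and 0.0583, and with no filter Eif2s3x and Eif3j1 had 0.0782 and 0.0896. Eif2s3x also no longer passed without blastocyst control replicate 4 or 6 or morula control replicate 2, 7 or 8 (adjusted p from 0.0701 to 0.157), and Eif3j1 without any one of the 4 blastocyst controls or morula control replicate 1 or 2 (adjusted p from 0.0533 to 0.105). The Eif3j1 call has the limit of shared sequence given above. Eif4e had −1.44 ± 0.12 (SE), adjusted p = 2.49e-06 and Eif5a −1.21 ± 0.21 (SE), adjusted p = 3.99e-04. Without blastocyst control replicate 5, 1 member, Eif2s3y, rose between these stages. Side by side with the morula controls, the blastocyst KD means were 372 ± 52.7 (SD, n = 4) against 502 ± 62.5 (SD, n = 4) FPKM for Eif5 and 38.4 ± 5.02 (SD, n = 4) against 59.8 ± 15.2 (SD, n = 4) FPKM for Eif2b2. For Eif2b1 they were 165 ± 32.7 (SD, n = 4) against 315 ± 20.7 (SD, n = 4) FPKM. Other members had the higher mean in blastocyst KD, such as Eif4ebp1 with 273 ± 46.97 (SD, n = 4) against 198 ± 20.8 (SD, n = 4) FPKM.

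Genes that act beside the members were taken from fixed lists. Of 21 other initiation genes, all tested, 10 rose and 3 fell in blastocysts after KD, with a median log2 fold change of 0.41. Of all genes, 16.7% were higher and 19.8% lower in blastocysts, and 4.22% and 9.05% in morulae, which are the shares to set beside the counts of these lists. Eif6, which keeps ribosomal subunits apart, rose by 1.38 ± 0.17 (SE), adjusted p = 1.25e-04. Ppp1r15a, whose product removes the phosphate from eIF2α, rose by 1.26 ± 0.22 (SE), adjusted p = 0.00112, and Eif1, for a start codon selection factor, by 1.17 ± 0.20 (SE), adjusted p = 0.00103. Mcts1, for a factor in reinitiation and recycling, had −0.92 ± 0.22 (SE), adjusted p = 0.00575 in blastocysts and −1.03 ± 0.18 (SE), adjusted p = 0.00782 in morulae. In morulae 3 of the 21 rose and 1 fell. Of 12 tested elongation and termination genes 3 rose and 0 fell in blastocysts, with a median of 0.15, and 0 rose and 1 fell in morulae. Of 13 tested mTORC1 and S6 kinase genes 2 rose and 3 fell in blastocysts, with a median of −0.08, and 1 rose and 1 fell in morulae. Of 8 tested genes of the ATF4 response, which follows phosphorylation of eIF2α, 4 rose in blastocysts and 0 fell, with a median of 0.84, and none passed in morulae. The 4 were Sesn2 (1.67 ± 0.23 (SE), adjusted p = 2.36e-04), Trib3 (1.36), Atf3 (1.20) and Psat1 (1.05). Sesn2, Trib3 and Atf3 had means under 1 FPKM in blastocyst controls and were tested only because of their level after KD, with adjusted p of 0.00706, 0.0186 and 0.00312 with no filter. Of the other 5 tested genes of that list, a split that the KD level itself decides, 1 rose, with a median of 0.58. Akt1s1, 1 of the 2 mTORC1 genes that rose, was tested in the same way and had an adjusted p of 0.0917 with no filter. No gene of these 4 lists passed at the 2-cell stage.

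In control embryos, markers of 2-cell embryos and of oocytes set the 2-cell stage apart from the morula. The summed FPKM of 5 markers of 2-cell embryos was 209.5 ± 32.3 (SD, n = 4) in 2-cell controls and 3.35 ± 2.09 (SD, n = 4) in morula controls, with Zfp352 most abundant in every 2-cell library. That of 7 oocyte and maternal markers, of which Oosp1 was the most abundant in every 2-cell library, was 923 ± 109 (SD, n = 4) and 7.68 ± 2.26 (SD, n = 4). In blastocysts 6 trophectoderm markers, with Krt18 most abundant in every library and none at 0, summed to 997, 1474, 1311 and 989 FPKM in controls and 584, 741, 784 and 604 FPKM after KD. Of these 6, Krt18 was lower (−1.02 ± 0.18 (SE), adjusted p = 0.00126), Tfap2c was higher (0.96 ± 0.23 (SE), adjusted p = 0.00675), and 4 did not pass. The 5 inner cell mass markers, with Nanog most abundant in every blastocyst library and none at 0 there, summed to 118, 142, 228 and 151 and 147, 159.9, 310.2 and 214 FPKM, and 0 of 4 tested passed. In morulae their sums were 146, 140.1, 148 and 174 FPKM in controls and 48.6, 40.7 and 59.5 FPKM after KD, where 1 of 3 tested, Nanog, was lower (−2.23 ± 0.37 (SE), adjusted p = 0.00645) and 1 marker was at 0 in 1 KD library. The 2-cell markers summed to 0.787, 0.964, 0.291 and 0.716 FPKM in blastocyst controls and 3.08, 13.98, 3.296 and 9.55 FPKM after KD. The part of these shifts in the changes of the initiation factors was not tested. Markers of cumulus and granulosa cells summed to at most 3.41 FPKM, those of sperm to at most 1.33 FPKM and those of blood and fibroblasts to at most 7.77 FPKM in any library, the last nearly all from Hba-a1, which was higher after KD in morulae and blastocysts.

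The promoters of the members were searched for 5 short motifs. RefSeq promoter sequence (GRCm38.p6) was at hand for 39 members with 52 start sites, and the 250 bases before each start were searched on both strands. The E-box CACGTG was in 19.2% of the members' windows and in 6.02% of all 32851 windows, and the ETS motif CCGGAAGT in 9.62% and 2.88%. CCAAT was in 25.0% and 33.8%, AAGATGGC in 1.92% and 1.56%, and a motif of NRF1 in 1.92% and 0.782%. More than 1 of these motifs was in 7 of the members' windows. Windows of one gene overlap and are not independent. The windows below are those of the members that rose in blastocysts after KD, held a match and overlapped no annotated exon. They are given 5′ to 3′ on the strand of the gene, with the matches in capitals. The Eif5a window is 1 of several for that gene. The matches are CACGTG for Eif5a, CCAAT on the opposite strand for Eif2b2 and CCGGAAGT on the opposite strand for Eif3d. Eif5a is at chr11:69921387-69921636 on the minus strand, Eif2b2 at chr12:85219231-85219480 on the plus strand and Eif3d at chr15:77970825-77971074 on the minus strand. A match describes the sequence and does not show that a factor binds.
Eif5a: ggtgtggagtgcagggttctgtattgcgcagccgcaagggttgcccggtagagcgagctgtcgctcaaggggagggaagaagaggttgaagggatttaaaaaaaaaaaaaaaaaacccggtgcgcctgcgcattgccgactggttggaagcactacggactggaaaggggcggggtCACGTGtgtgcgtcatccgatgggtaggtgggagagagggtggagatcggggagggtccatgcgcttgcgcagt
Eif2b2: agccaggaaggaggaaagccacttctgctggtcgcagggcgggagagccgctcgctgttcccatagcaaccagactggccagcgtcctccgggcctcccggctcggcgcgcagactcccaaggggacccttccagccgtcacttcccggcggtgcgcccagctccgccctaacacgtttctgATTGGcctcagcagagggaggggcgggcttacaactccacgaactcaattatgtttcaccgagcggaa
Eif3d: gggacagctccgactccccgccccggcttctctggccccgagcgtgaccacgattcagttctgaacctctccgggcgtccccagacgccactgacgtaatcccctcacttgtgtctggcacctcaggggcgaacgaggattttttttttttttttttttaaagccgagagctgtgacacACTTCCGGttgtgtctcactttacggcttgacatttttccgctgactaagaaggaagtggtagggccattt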

How the data were processed

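RNA-seq libraries of mouse embryos, control and H2A.Z KD, were grouped by the submitters' labels. The authors aligned reads to mm10 with STAR and quantified genes with StringTie 2.1.4, and the deposited values are FPKM, 1 column per library, with 0 columns without a sample. DESeq2 and featureCounts are also named in their processing notes, for counts not used here. Low values of 13564 single-exon genes were not whole multiples of 1 read (14.2% to 22.8% of low values lay within 5% of a whole step), so depth is unknown and no counting intervals are given.

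Within each comparison, libraries were scaled to each other by the median of ratios. Genes with at least 1 FPKM in at least 3 libraries were fitted on log2(FPKM + 1) with limma 3.58.1 in R 4.3.3 (trend), using only the groups compared, with Benjamini-Hochberg adjustment over all genes tested. The scripts were tested on simulated data. Gene positions and transcripts came from GENCODE vM21, which held 55154 of the 55335 identifiers.

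Per-library values are given for the target gene, for up to 3 members with the largest rise and fall that passed in each comparison, DEGs, the 2 most abundant members per stage and up to 6 members whose interaction passed. Members named beyond this rule were chosen after their values were seen. The members and lists were chosen with earlier results of these data known. Alternatives were a pseudocount of 0.1, no filter, other scalings, left-out libraries, and replicate number as a block or by range.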

Additional observations from a re-analysis of the deposited data

Results flagged for a closer look

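In 2 of 60 groups of 4 libraries one library stood far from the other 3, where chance sets apart about 1 in 20. Eif4e1b was at 0.061 FPKM in blastocyst control replicate 5 and listed at 0 in the other 3 controls. Beside 3 values of 0 any value above 0 stands apart, so nothing is concluded from it. Eif2s2 was at 1880 FPKM in blastocyst control replicate 1, above the other controls.

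The response to KD differed between blastocysts and morulae, by a test of the difference itself, for 5 of 43 members tested, where 11.7% of all genes did so. The members' share was thus close to that of all genes. With no filter on low values none of the 5 passed, and with replicate number as a block only Eif2s3y among them did. The difference in log2 fold change was 1.01 for Eif2b2, 0.89 for Eif3d, 0.81 for Eif5, 0.75 for Eif3l and −1.95 for Eif2s3y. No explanation for these was tested.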

How the results depend on the processing

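At the 2-cell stage 0 members passed by limma under all 13 alternatives. In blastocysts 11 to 18 members were higher (main 14) and 2 or 3 lower (main 2) under 14 alternatives. Of all genes, 5.21% to 17.8% were then higher and 5.99% to 20.8% lower, with the lowest shares where no filter was used. From the 2-cell stage to the morula 24 to 30 members rose and 9 to 13 fell, beside 20.2% to 43.7% and 24% to 45% of all genes. From the morula to the blastocyst 21 to 24 fell, beside 11.5% to 30.5% of all genes. In morulae the number of members higher after KD, 2, became 1 with no filter, 1 with FPKM as deposited and 1 with scaling to the summed FPKM, and it was 1 to 2 when single libraries were left out. Of all genes, 0.392%, 2.56%, 2.19% and 1.3% to 5.22% were higher in these fits. The number of members lower, 0, became 4 with FPKM as deposited and 7 with the summed FPKM, beside 14.1% and 16.2% of all genes. Member DEGs in blastocysts, 2, became 4 with the summed FPKM and 1 to 5 with single libraries left out. From the morula to the blastocyst 1 member rose with no filter and 0 to 1 with single libraries left out, beside 11.9% and 25% to 26.6% of all genes. The 5 interactions became 0 with no filter, 13 with the summed FPKM and 2 to 8 with single libraries left out. Of all genes, 2.65%, 13.9% and 7.59% to 13.7% passed in these fits. With no filter more genes are tested; the other causes were not tested. Nothing in the sources pairs control and KD libraries by replicate number. The mean correlation of libraries with the same number was 0.146 at the 2-cell stage, 0.138 in morulae and 0.0825 in blastocysts. For other pairs it was −0.0487, −0.0281 and −0.0288. In morulae controls 1 and 2 had 0.094 to 0.181 with KD replicates 1 and 2. Controls 7 and 8 had 0.185 and 0.346 with KD replicate 6. All other morula pairs were negative, from −0.278 to −0.094. In 2-cell embryos controls 1 and 2 had 0.208 and 0.205 with KD replicate 1. Controls 4 and 5 had 0.214 and 0.163 with KD replicate 4, and KD replicate 2 had −0.0211 to 0.0147. With replicate number as a block, 0 members were higher in morulae, beside 5.87% of all genes. Eif3a (adjusted p = 0.217) and Eif4ebp1 (adjusted p = 0.0562) no longer passed there. With the block 3 interactions passed, where 8.56% of all genes did, against 11.7% in the main fit. Of these, 1, Eif2s3y, was among the 5 and 2, Eif3b and Eif5a, were not. With a term for low against high replicate numbers 1 member was lower in morulae and 8 interactions passed, beside 11.5% and 15.7% of all genes. Of 309 alternatives for 21 single-gene values, 260 stayed on the same side of the threshold, 49 no longer passed and 0 changed direction.

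Each group holds 3 or 4 pools, and no source says which pools of a group were collected apart. Whether the control embryos for RNA-seq were injected is not stated. FPKM give shares of each library and not amounts per embryo, so a change in total RNA cannot be seen. Read depth is unknown, so the precision of low values such as those of Eif4e1b and Eif4g3 cannot be given. Embryo sex in the pools is not given. Transcript levels say nothing of protein amount, phosphorylation or rates of translation.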
